A study of Mus musculus with 64 samples.

Results

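The 9 genes described here code for subunits of the Polycomb repressive complexes. They are Ezh1, Ezh2, Eed and Jarid2 of complex PRC2, and Cbx2, Cbx7, Cbx8, Bmi1 and Pcgf2 of complex PRC1. They were chosen by name, 9 of the 34328 protein-coding and lncRNA genes of the RefSeq table, and the question was whether the genes for the machinery carry the marks that the machinery makes. PRC2 trimethylates a lysine of histone H3 (H3K27me3) through its catalytic subunit Ezh1 or Ezh2, and PRC1 ubiquitylates a lysine of histone H2A (H2AK119Ub) through Ring1A or Ring1B. Both marks are known for keeping developmental genes silent, and Cbx proteins of PRC1 can bind H3K27me3. In B cells, Ezh2 is known to be induced on activation and Bmi1 to sustain lymphoid proliferation.

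The method was CUT&RUN, where a nuclease bound to an antibody cuts the DNA beside the antibody's target, applied to CD23+ B cells from spleens of female F1 mus x cast hybrid mice. The cells received 1 µM CpG, DNA that activates the receptor TLR9, for 12 or 24 h, or were left unstimulated (0 h). All groups share the cross, C57BL/6 females with a heterozygous Xist deletion mated to castaneus males, and the deposited peak lists carry the name Cast and were read as the peaks of the castaneus allele. H3K27me3 was mapped in 3, 3 and 4 libraries at 0, 12 and 24 h and H2AK119Ub in 4, 3 and 5. H3K9me3 had 4 libraries per time, and H3K27ac, the PRC2 subunit Suz12 and the PRC1 subunit Ring1B had 3. The labels call replicates biological but do not say which mouse each came from.

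The measure is the percent of a gene's region, the gene with 2 kb on each side, that lay under peaks in a library. A gene is called marked at a time when at least 10% of its region was covered in a majority of the libraries. A peak of a given length covers more of a short region, and the regions of the members ran from 8.61 kb at Cbx8 to 195 kb at Jarid2. Read depth is not given, and the lists of the histone marks were longer after stimulation. At 0, 12 and 24 h the H3K27me3 lists held 2771 to 7561, 10056 to 16525 and 20452 to 26764 peaks, and the H2AK119Ub lists 2098 to 4346, 12330 to 18834 and 10963 to 24632. A gain at a member therefore has to be read beside that of all genes, whose share is given with each count, and list length cannot be told apart from time. Suz12 and Ring1B lists hold a fixed top share of signal blocks, so they rank places and do not measure how much of a subunit was bound. The Ring1B list of 12 h replicate 1 was unlike the others of 12 h. It held 18141 peaks over 4.11% of the autosomes, against 26149 over 3.25% in replicate 2 and 28902 over 2.29% in replicate 3. H3K27ac, a mark of active chromatin, covered all 10 B cell marker genes in most libraries at every time and none of 4 erythroid genes, with Gata1, Hbb-bt and Alas2 at 0. Up to 2 of 6 T cell genes and 2 of 6 myeloid genes had an H3K27ac peak in most libraries, with Cd3e, Cd8a, Cd4, Lyz2 and Mpo at 0. Of 4 stromal and endothelial genes, 1 (Pecam1) had such a peak in most libraries at every time. The erythroid Klf1 had a peak at 12 h, but not in most libraries.

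The start sites of 5 members are shown because the results turn on these genes. At 24 h H3K27me3 touched the windows of Cbx8 and Pcgf2 in 4 of 4 libraries and that of Bmi1, whose mark lay inside the gene, in 1 of 4. The windows of Eed and Ezh2 had no H3K27me3 peak in any library. Each line gives 250 bases before to 50 bases after the listed start, 5′ to 3′ on the gene's strand, from RefSeq on GRCm38.p6 (the assembly of mm10). Capitals mark the dinucleotide CG, which at high density makes a CpG island, a kind of promoter sequence that Polycomb complexes are known to occupy.
Cbx8, chr11:119040864-119041163, minus strand: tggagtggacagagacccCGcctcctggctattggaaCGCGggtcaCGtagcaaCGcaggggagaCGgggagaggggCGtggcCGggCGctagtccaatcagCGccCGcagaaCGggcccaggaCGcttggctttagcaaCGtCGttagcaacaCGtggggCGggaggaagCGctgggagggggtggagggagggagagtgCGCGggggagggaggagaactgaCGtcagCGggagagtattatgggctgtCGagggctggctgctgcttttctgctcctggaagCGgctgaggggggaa
Pcgf2, chr11:97699599-97699898, minus strand: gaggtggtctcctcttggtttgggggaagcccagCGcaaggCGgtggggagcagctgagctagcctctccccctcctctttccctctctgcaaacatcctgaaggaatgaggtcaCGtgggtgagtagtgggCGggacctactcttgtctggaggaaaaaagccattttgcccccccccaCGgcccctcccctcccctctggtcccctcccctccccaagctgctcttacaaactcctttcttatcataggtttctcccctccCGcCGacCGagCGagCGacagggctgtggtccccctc
Bmi1, chr2:18676768-18677067, plus strand: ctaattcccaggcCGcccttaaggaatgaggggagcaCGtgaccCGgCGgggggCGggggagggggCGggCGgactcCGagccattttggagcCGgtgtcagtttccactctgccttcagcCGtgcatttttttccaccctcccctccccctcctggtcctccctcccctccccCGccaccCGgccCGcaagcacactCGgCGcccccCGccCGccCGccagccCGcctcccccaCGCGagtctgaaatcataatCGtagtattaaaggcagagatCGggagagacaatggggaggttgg
Ezh2, chr6:47594981-47595280, minus strand: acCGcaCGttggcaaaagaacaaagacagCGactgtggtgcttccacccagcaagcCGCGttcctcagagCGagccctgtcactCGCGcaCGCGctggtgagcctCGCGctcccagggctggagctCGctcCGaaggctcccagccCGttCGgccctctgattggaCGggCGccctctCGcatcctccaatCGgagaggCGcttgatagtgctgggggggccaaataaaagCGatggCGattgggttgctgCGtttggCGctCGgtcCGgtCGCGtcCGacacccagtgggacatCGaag
Eed, chr7:89980927-89981226, minus strand: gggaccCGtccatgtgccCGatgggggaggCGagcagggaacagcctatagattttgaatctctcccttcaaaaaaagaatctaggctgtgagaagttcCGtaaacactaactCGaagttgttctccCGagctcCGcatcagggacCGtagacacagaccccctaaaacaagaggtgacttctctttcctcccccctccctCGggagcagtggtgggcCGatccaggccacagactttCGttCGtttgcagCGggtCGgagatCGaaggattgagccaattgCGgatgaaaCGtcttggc

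RefSeq windows were matched for 8 of the 9 members and not for Cbx2. The window of Cbx8 holds 24 CG, and that of Pcgf2 holds 10. The other windows hold 23 CG at Bmi1, 31 at Ezh2 and 17 at Eed, against a median of 7 over 26794 promoter windows of the same length. At least as many CG as in Ezh2 were found in 10.4% of those windows, and at least as many as in Pcgf2 in 44.3%. CG density did not set the marked members apart from the unmarked ones, since the unmarked Ezh2 had 31 and the marked Pcgf2 had the fewest of the 8.

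H3K27me3 marked all 5 PRC1 members by 24 h and none of the 4 PRC2 members at any time, a split that other Polycomb genes, given below, did not all follow. At 0 h Cbx2 and Cbx7 were marked, 2 of 9 members against 8.23% of all genes, and without 0 h replicate 1 or 3 Cbx7 alone was. At 12 h Cbx2, Cbx7 and Cbx8 were marked, 3 of 9 members against 16.6% of all genes. At 24 h all 5 PRC1 members and 0 of the 4 PRC2 members were marked, against 27.1% of all genes. Without the flanks Cbx2 was not, as its gene body was at 14.6, 6.15, 8.59 and 11.1%. With equal numbers of peaks per list Pcgf2 had a peak in too few libraries to be marked. H2AK119Ub marked Cbx2, Cbx7, Cbx8 and Bmi1 at 0 h, against 4.87% of all genes, and Cbx2, Cbx7, Cbx8 and Pcgf2 at 12 h, against 22.8%. At 24 h it marked the same 5 PRC1 genes as H3K27me3, against 27.6% of all genes, and 15.4% of all genes had both marks. No test of that split was made, as the members were chosen with results of these data known. In bulk libraries, fewer marked cells and less mark per cell cannot be told apart.

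**Figure D1:**
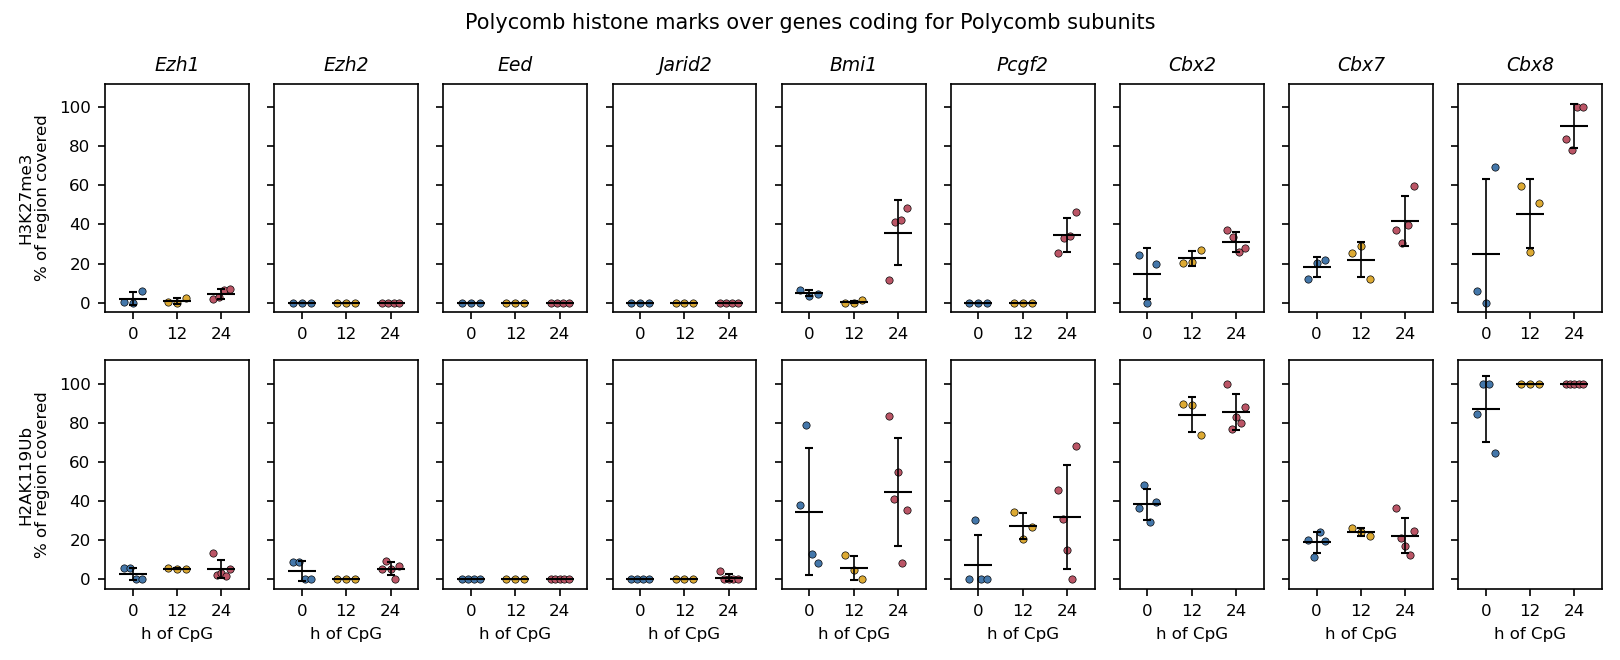
Percent of each gene's region covered by H3K27me3 (top) and H2AK119Ub peaks (bottom) against hours of CpG, with 1 point per library and the mean and SD in black (n = 3 to 5; bars that run past the axis are clipped). The PRC2 genes Ezh1, Ezh2, Eed and Jarid2 stay near 0, with 13.5% as their highest value, while Cbx8 reaches 100% in both rows.

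Cbx8, a chromodomain subunit of PRC1 (chr11:119036303-119040913), was the most widely covered member and has the shortest region. H2AK119Ub lay over 84.4, 100, 100 and 64.4% of its region at 0 h and over 100% in all 3 libraries at 12 h and all 5 at 24 h. The groups overlapped, and a region that is wholly covered can show no further gain. At 24 h only 0.30% of all genes were as high, and at 0 h 0.62%. H3K27me3 was uneven among the unstimulated libraries, at 5.81, 0 and 69.2%, and lay at 59.9, 25.7 and 50.7% at 12 h and at 83.5, 77.8, 100 and 100% at 24 h. Every 24 h library was above every earlier one. The mean difference between 24 and 0 h was 65.3 percentage points (SE 17.0), and the gene passed the test over the 3 times (limma moderated F-test, adjusted p = 0.0242). That call was lost without 0 h replicate 1 or 2 (adjusted p = 0.0659 and 0.0608) and without 24 h replicate 3 or 4 (adjusted p = 0.0537 and 0.0579). It was also lost with a replicate block (adjusted p = 0.0501) and within 2 kb of the start (adjusted p = 0.253). Divided by autosomal coverage of its own list the gene was far from passing (adjusted p = 0.823). The promoter window printed above was wholly under H2AK119Ub in all 4, 3 and 5 libraries at 0, 12 and 24 h and under Suz12 in all 3 at each time. H3K27ac was 0 in all 9 libraries.

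Cbx2, another chromodomain subunit (chr11:119023019-119031275), gained H2AK119Ub. The mark covered 36.4, 48.1, 29.2 and 39.5% of the region at 0 h, 89.7, 88.8 and 73.6% at 12 h, and 100, 76.7, 82.9, 79.7 and 87.9% at 24 h. Both stimulated groups were wholly above the unstimulated one and overlapped each other. The difference was 45.8 points at 12 h (SE 8.44) and 47.1 points at 24 h (SE 7.41), each against 0 h (limma, adjusted p = 0.00177 over the 3 times). The sign turned when coverage was divided by that of the autosomes (adjusted p = 0.372). It was the only member whose H2AK119Ub passed, 1 of 7 tested, while 33.2% of all genes tested passed and 31.0% passed and were higher at 24 h. H3K27me3 did not pass at Cbx2 (adjusted p = 0.136), with 37.0, 33.6, 25.7 and 28.0% at 24 h against 24.6, 0 and 19.8% at 0 h. It lay mostly beside the gene, as gene body coverage at 24 h was 6.15 to 14.6%. The region's first 2.71 kb were under H3K27me3 in most libraries at 24 h, as the edge of peaks 62.8 to 64.0 kb long that covered the overlapping lncRNA Gm35829. H2AK119Ub covered 72.3 to 100% of the gene body at 24 h, against 0 to 23.1% at 0 h.

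Cbx2 and Cbx8 are neighbours on chromosome 11, and their regions do not overlap, but single peaks covered parts of both. Such a peak of H2AK119Ub was present in all 4, 3 and 5 libraries at 0, 12 and 24 h, and at 24 h it was 14.6 to 111 kb long. H3K27me3 had one in 1 of 3 libraries at 0 h, in 1 of 3 at 12 h and in 4 of 4 at 24 h. Values of both genes thus share peaks and are not independent.

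**Figure D2:**
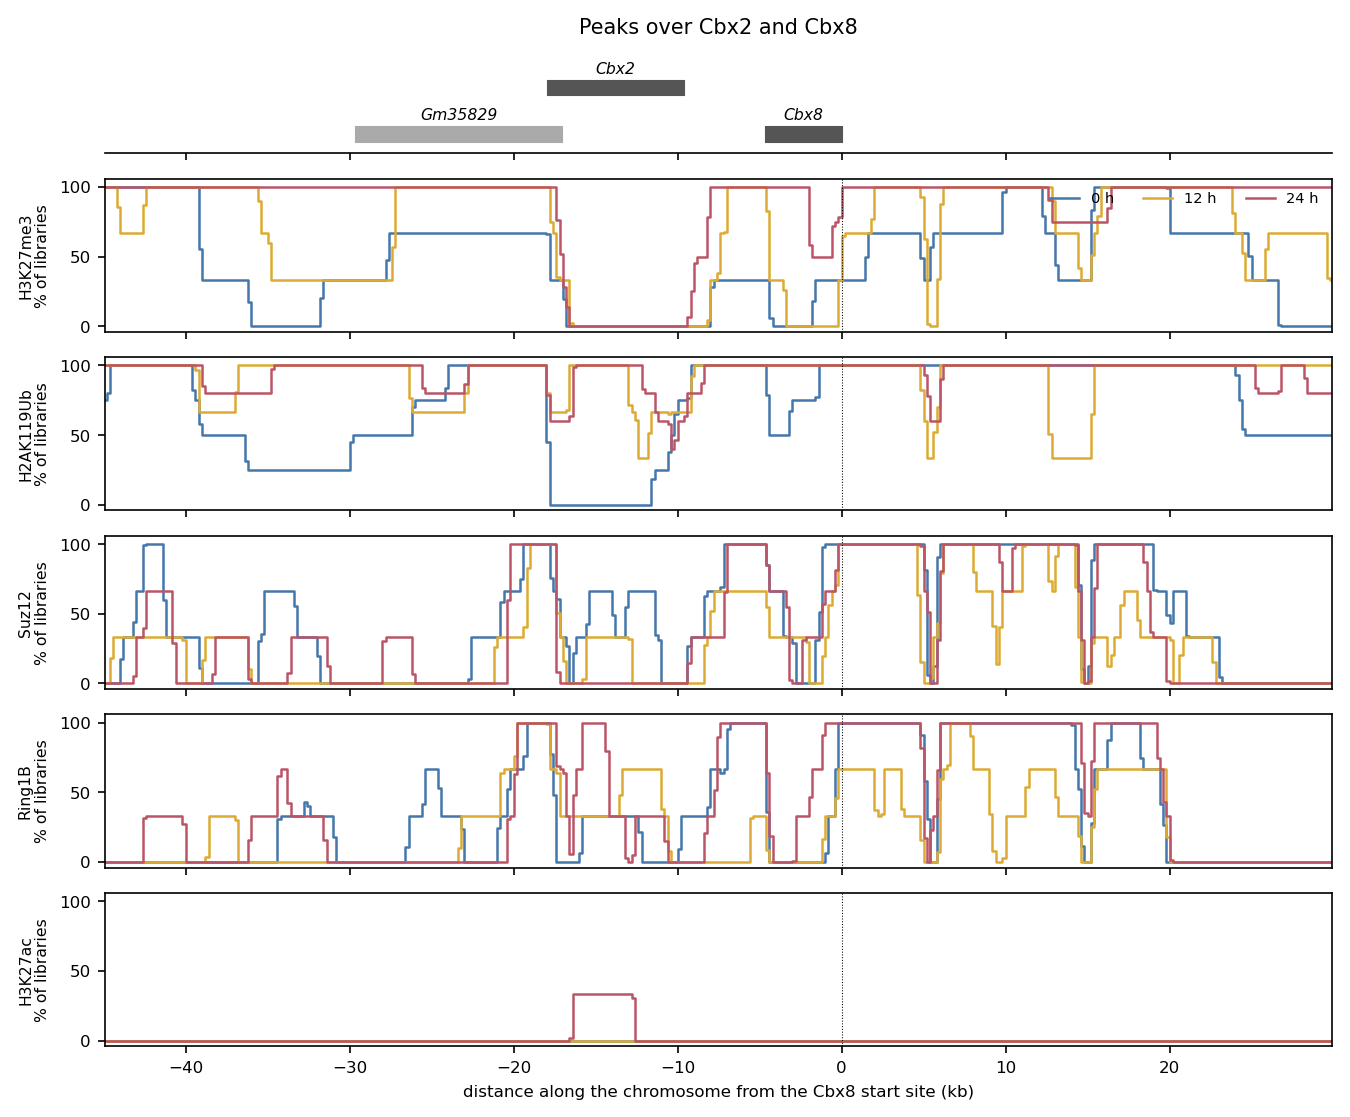
Share of libraries with a peak in each 200-base bin, in percent, against the distance in kb along the chromosome from the Cbx8 start site, by antibody and hours of CpG, with gene bodies on top (lncRNA in light grey). H2AK119Ub lies over the Cbx8 start in 100% of libraries at all times and over most of Cbx2 in most stimulated libraries, while H3K27ac appears in 1 library of the 24 h group.

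Cbx7 (chr15:79915804-79971143), the chromodomain subunit that is known to repress the Cdkn2a locus, carried both marks at every time. H3K27me3 covered 12.2, 20.5 and 21.8% of the region at 0 h, 25.3, 28.7 and 12.0% at 12 h, and 37.0, 30.5, 39.7 and 59.9% at 24 h. The 24 h libraries stood above all others, by 23.6 points over 0 h (SE 8.09), and the gene just missed the threshold (limma, adjusted p = 0.0530). Without 24 h replicate 2 it passed (adjusted p = 0.0408). Divided by autosomal coverage the order turned, with 3.73 to 4.74 times the autosomes at 24 h against 5.68 to 15.9 times at 0 h (adjusted p = 0.136). H2AK119Ub overlapped among the times, with 11.5 to 24.3% at 0 h, 22.4 to 26.4% at 12 h and 12.5 to 36.2% at 24 h (limma, adjusted p = 0.759). H3K27me3 at 24 h ran in most libraries from 13.3 kb before to 0.146 kb after the listed start, inside the longer gene model, so this stretch ends at the start site. A second stretch lay 26.3 to 21.9 kb before the start. H2AK119Ub at 24 h crossed the start, from 11.1 kb before to 2.53 kb after it. H3K27ac lay from 2.11 to 6.15 kb after the start, in 2 of 3 libraries at 24 h. It shared no base with the H3K27me3 stretches and 415 bases with H2AK119Ub.

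Bmi1 (Pcgf4; chr2:18677018-18686629), the Ring1B partner of canonical PRC1, had its lowest mean at 12 h with H3K27me3, H2AK119Ub, Suz12 and Ring1B alike. Suz12 covered 65.0, 26.8 and 47.5% of its region at 0 h, 0, 9.35 and 5.86% at 12 h, and 39.5, 39.4 and 38.2% at 24 h. Ring1B covered 30.4, 47.8 and 38.7% at 0 h, 4.61, 8.16 and 16.3% at 12 h, and 52.7, 28.9 and 41.4% at 24 h. With either antibody every 12 h library was below every library of the other times, yet neither passed over all genes. The F-test gave an adjusted p of 0.281 for Suz12 and of 0.379 for Ring1B (limma). Suz12 marked fewer of all genes at 12 h, 10.3%, than at 0 h, 18.5%, or 24 h, 12.7%, and Ring1B 14.6%, against 14.4% at 0 h and 19.9% at 24 h. Inside the gene body, without the flanks, Ring1B was 0, 0 and 0.114% at 12 h.

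H2AK119Ub at Bmi1 spread widely within groups. It covered 38.1, 78.9, 13.1 and 8.30% at 0 h, 12.2, 4.50 and 0% at 12 h, and 83.4, 40.9, 55.0, 8.45 and 35.3% at 24 h, with overlap between 12 h and each of the other times (limma, adjusted p = 0.197). In the gene body it was 0 in all 3 libraries at 12 h, in 2 of 4 at 0 h and in 1 of 5 at 24 h. H3K27me3 covered 6.71, 3.53 and 4.34% at 0 h, 0, 0 and 1.14% at 12 h, and 11.4, 41.0, 42.1 and 48.4% at 24 h. All 24 h values were above all earlier ones, and H3K27me3 rose by 30.9 points over 0 h (SE 7.90) and by 35.4 points over 12 h (SE 7.90; limma, adjusted p = 0.00930 over the 3 times). Divided by autosomal coverage the gene did not pass (adjusted p = 0.106), nor did it with stricter lists (adjusted p = 0.148) or within 2 kb of the start. The early values came from the flank toward Gm46725 and Spag6, because the gene body itself was at 0 in all 6 libraries of 0 and 12 h and in 24 h replicate 1.

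The H3K27me3 of 24 h formed an island inside Bmi1, 0.274 to 4.08 kb after the start (chr2:18677292-18681096), covered in most libraries. Suz12 at 24 h ran from 0.597 kb before to 3.99 kb after the start and Ring1B from 0.805 to 4.09 kb after it. Suz12 had covered nearly the same stretch in most libraries at 0 h, 0.902 kb before to 4.95 kb after, when no library had H3K27me3 in the gene body. H3K27ac at 24 h lay over the start itself, 1.29 kb before to 0.651 kb after, in 2 of 3 libraries, and shared 378 bases with the H3K27me3 island. At 0 h H3K27ac was 0 in all 3 libraries. Each antibody was applied to a separate portion of cells, so marks on the same cells and marks on different cells cannot be told apart.

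**Figure D3:**
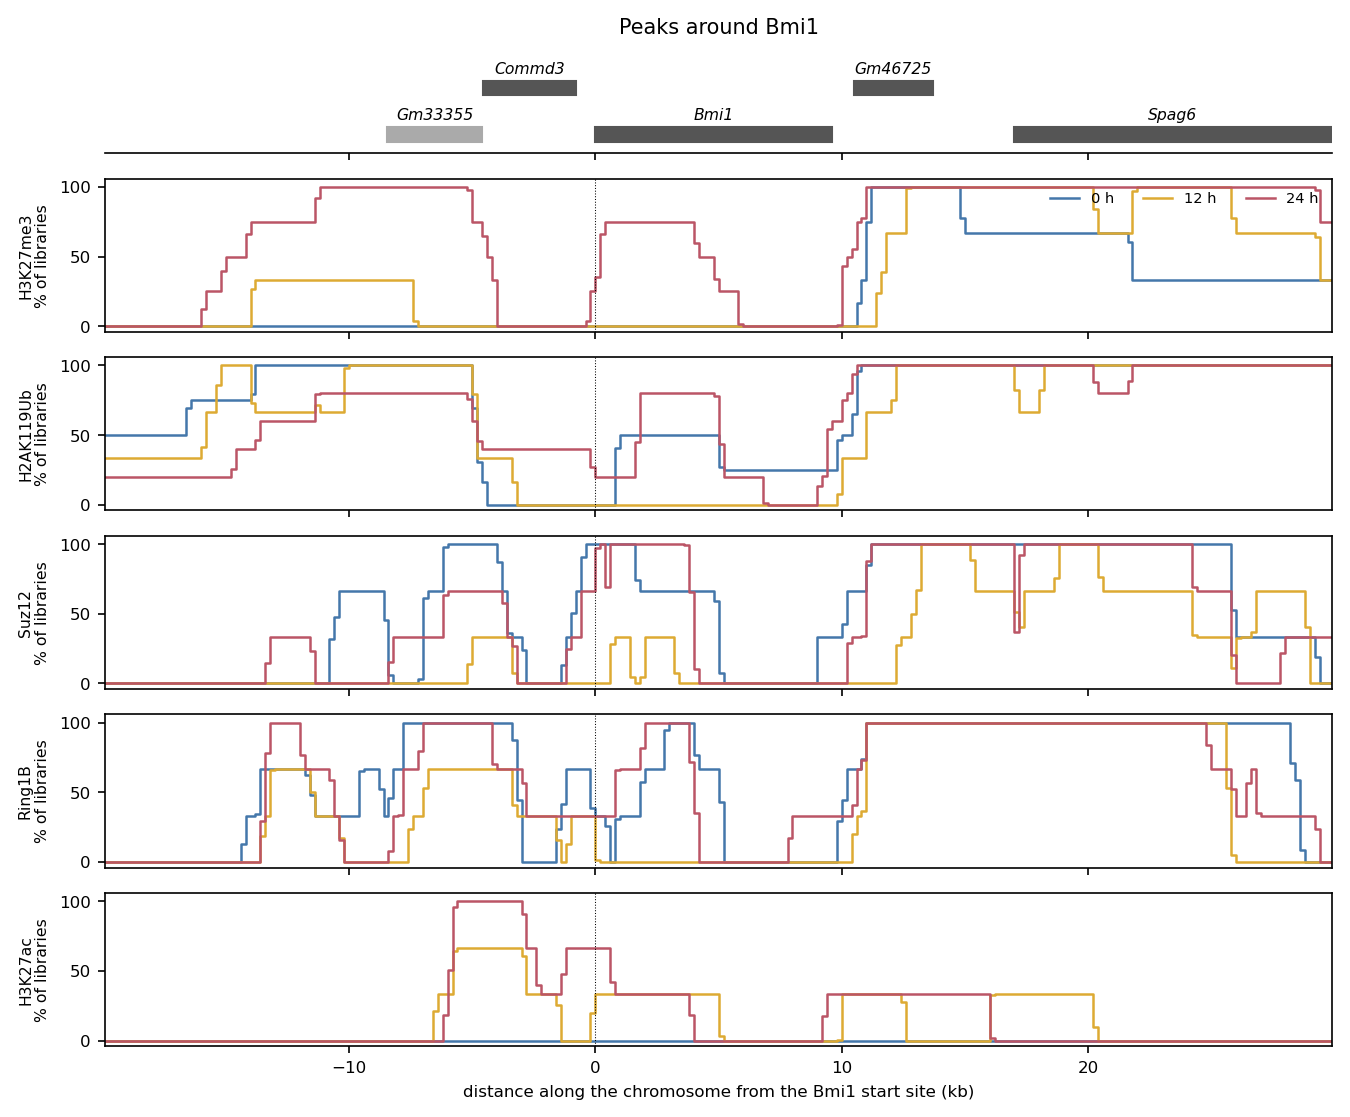
Share of libraries with a peak in each 200-base bin, in percent, against the distance in kb from the Bmi1 start site along the chromosome, by antibody and hours of CpG, with gene bodies on top (lncRNA in light grey). The blocks inside Bmi1 in the Suz12 and Ring1B rows are present at 0 and 24 h and nearly absent at 12 h, while the domain beyond Gm46725 toward Spag6 is present at all times.

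Pcgf2 (Mel18; chr11:97688821-97702434), a paralog of Bmi1 with the same place in PRC1, gained H3K27me3 at 24 h. No peak touched its region in the 3 libraries at 0 h or the 3 at 12 h, and at 24 h 25.2, 32.9, 34.1 and 46.2% were covered. The difference to either earlier time was 34.6 points (SE 4.83 against 0 h, limma, adjusted p = 0.000705), the smallest adjusted p of any member. The gene had enough peaks for the test through its 24 h libraries alone, so only a gain could be called, and the earlier groups had no spread. The peaks were of ordinary size in their lists, with total signals at the 35.3 to 54.4 percentile, so the depth of the earlier lists limits what their absence says. The 24 h stretch ran from 2.89 kb before to 2.84 kb after the listed start and held the whole printed window in 4 of 4 libraries. H2AK119Ub covered 0, 30.2, 0 and 0% at 0 h, 34.2, 20.7 and 26.6% at 12 h, and 45.4, 31.0, 15.0, 0 and 68.1% at 24 h, and did not pass (limma, adjusted p = 0.254). It thus covered the window in all 3 libraries at 12 h, when H3K27me3 covered it in 0 of 3. Ring1B lay over 21.1, 22.9 and 23.9% at 24 h, against 14.2, 23.4 and 11.0% at 0 h, and did not pass either (adjusted p = 0.866).

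**Figure D4:**
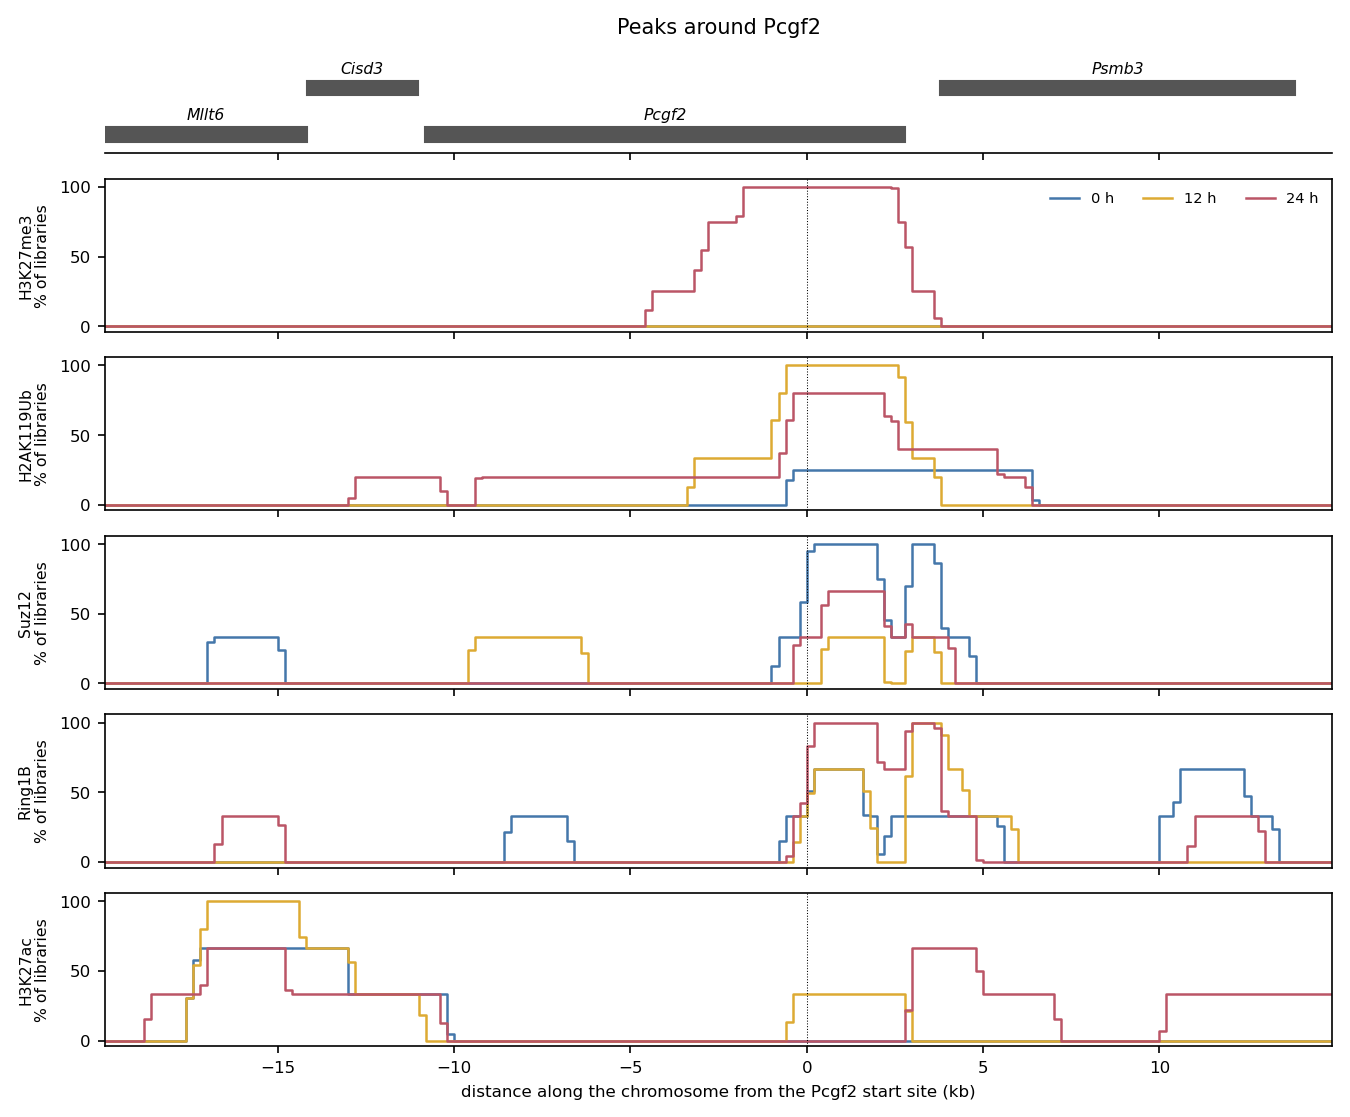
Share of libraries with a peak in each 200-base bin, in percent, against the distance in kb from the Pcgf2 start site along the chromosome (the gene runs to the left), by antibody and hours of CpG, with gene bodies on top. H3K27me3 is at 0 except at 24 h, when 100% of libraries cover the start, and H2AK119Ub is over the start in 100% of libraries at 12 h.

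For H3K27me3, 6 of the 9 members had enough peaks for the test (a peak in at least 3 libraries of the antibody). Of these 3 passed and were higher at 24 h than at 0 h, namely Cbx8, Bmi1 and Pcgf2, while 56.8% of all genes tested passed and 56.5% passed and were higher. A gene with peaks at 24 h only, such as Pcgf2, can pass only as higher, and these shares include such genes. The median difference between 24 and 0 h was 27.2 points over the 6 members, against 28.9 points over all 11914 genes tested. For H2AK119Ub it was 10.0 points over 7 members, against 18.0 points over 13845 genes. Neither median of the members was above that of all genes tested. Their order by coverage at 24 h was Cbx8, Cbx7, Bmi1, Pcgf2 and Cbx2 for H3K27me3, where Cbx7, Bmi1, Pcgf2 and Cbx2, with means of 41.8 ± 12.7, 35.7 ± 16.5, 34.6 ± 8.71 and 31.1 ± 5.16% (SD, n = 4), overlap. For H2AK119Ub it was Cbx8, Cbx2, Bmi1, Pcgf2 and Cbx7, where the last 3, with means of 44.6 ± 27.5, 31.9 ± 26.4 and 22.2 ± 9.02% (SD, n = 5), overlap.

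None of the PRC2 members was marked with H3K27me3, and 3 of the 4 had no peak of it. Ezh2 (chr6:47530274-47595270), the methyltransferase of dividing cells, Eed (chr7:89954654-89980976), which binds H3K27me3 and stimulates the enzyme, and Jarid2 (chr13:44730774-44921643), which helps to recruit PRC2, had no H3K27me3 peak in any of the 10 libraries. The same was true of 56.4% of all genes. Eed also had no H2AK119Ub peak in any of 12 libraries, as did 46.3% of all genes, and Jarid2 had one in 24 h replicate 1 alone. Ezh2 carried H2AK119Ub over 5.43, 9.60, 5.32, 0 and 6.99% of its region at 24 h and over 9.03, 8.74, 0 and 0% at 0 h, with 0 in all libraries at 12 h. Ezh1 (chr11:101191115-101226463), the enzyme known for quiescent cells, had H3K27me3 over 0.145, 0 and 5.97% at 0 h, 0.376, 0 and 2.63% at 12 h and 1.71, 3.09, 6.26 and 7.05% at 24 h. These values overlapped (limma, adjusted p = 0.209) and came mostly from the flank, since the gene body had at most 2.19%.

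Suz12 and Ring1B peaks did lie on the start site of Eed and, in part, on that of Ezh2, and less often on those of Ezh1 and Jarid2. The Eed window was wholly under a Suz12 peak and under a Ring1B peak in all 3 libraries at each time, 18 lists in all. Every library touched the promoter window with Suz12 in 11.1, 2.54 and 6.85% of all genes with a window at 0, 12 and 24 h, and with Ring1B in 7.59, 4.28 and 14.8%. Ezh2 had Ring1B peaks over its window in 3 of 3 libraries at 0 h, 2 of 3 at 12 h and 3 of 3 at 24 h. These were among the strongest of their lists, with the strongest peak of the region at the 99.9 percentile of total signal at 0 h in every library and at 98.9 to 99.3 at 24 h. Its Ring1B coverage was 6.53, 9.31 and 7.04% at 24 h against 11.6, 19.3 and 14.1% at 0 h, without overlap, and did not pass (limma, adjusted p = 0.745). Suz12 touched the Ezh2 window in 3 of 3 libraries at 0 h, 1 of 3 at 12 h and 0 of 3 at 24 h. The Jarid2 window had Suz12 in 1, 0 and 0 and Ring1B in 0, 1 and 1 of 3 libraries at these times. At Ezh1 the counts were 1, 0 and 1 for Suz12 and 1, 0 and 2 for Ring1B. No IgG list was analysed here, so the background of such peaks at active start sites was not tested. H3K27ac covered the windows of Ezh2 and Eed in all 3 libraries at 12 h and all 3 at 24 h, while 11.5% and 12.4% of all windows were at least touched by a peak in every library of these times.

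**Figure D5:**
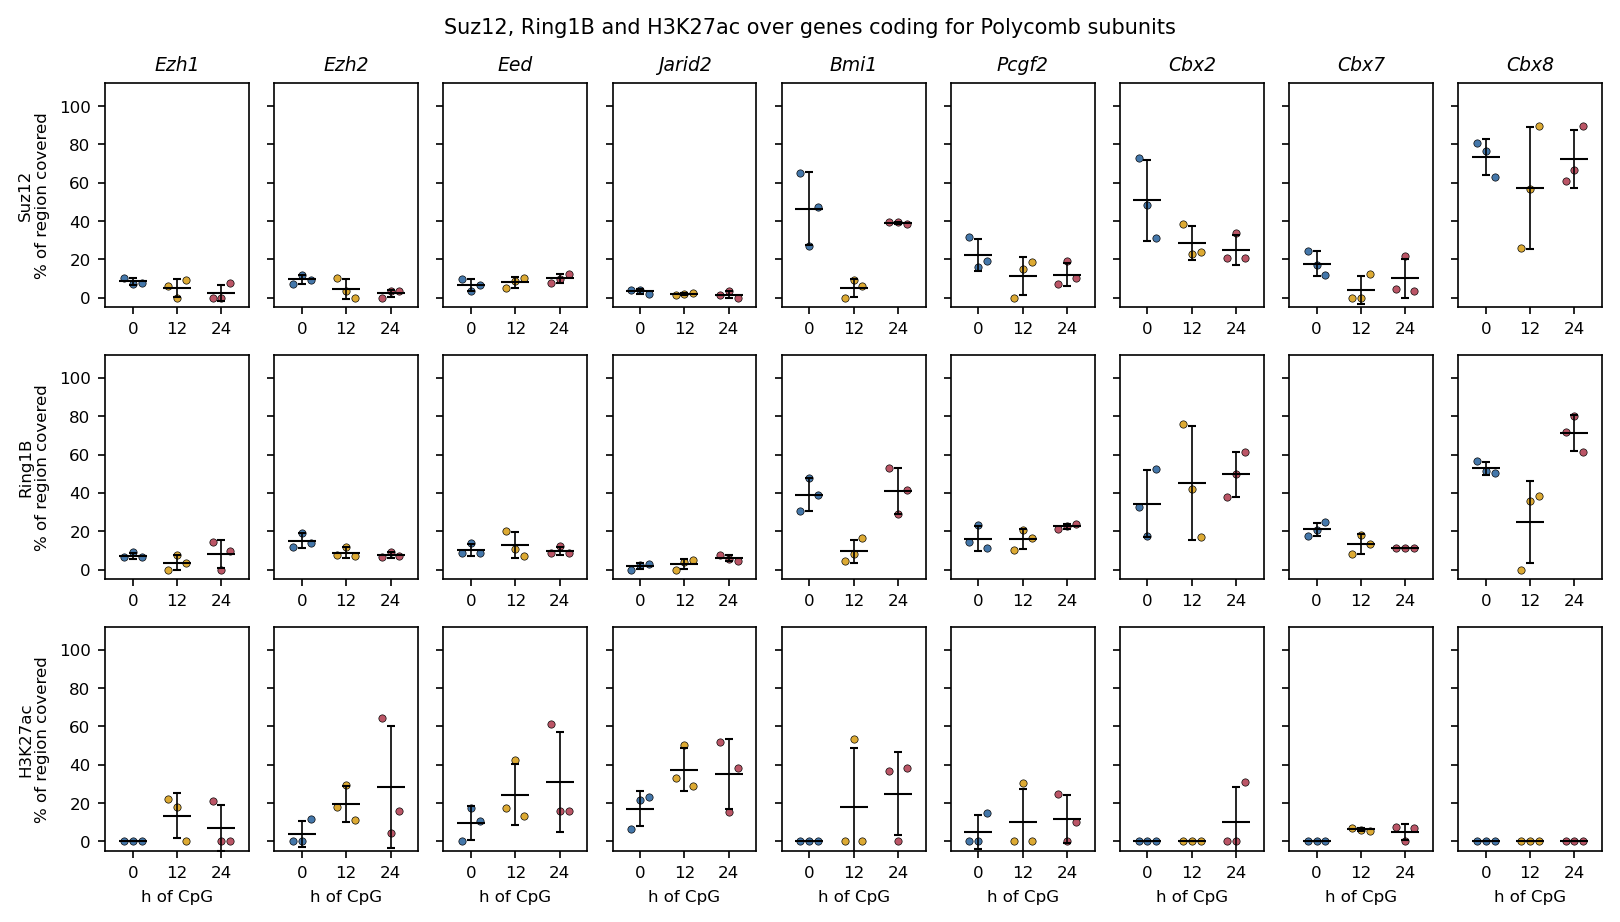
Percent of each gene's region covered by Suz12 (top), Ring1B (middle) and H3K27ac peaks (bottom) against hours of CpG, with 1 point per library and the mean and SD in black (n = 3 each; bars that run past the axis are clipped). Bmi1 is low at 12 h in the Suz12 and Ring1B rows, Cbx8 is high in both and at 0 in H3K27ac, and Jarid2 is covered by H3K27ac in all 9 libraries.

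Suz12 marked Cbx2, Cbx7, Cbx8, Bmi1 and Pcgf2 at 0 h, the same 5 genes that H3K27me3 marked at 24 h, against 18.5% of all genes. The regions of Cbx8, Cbx2, Bmi1 and Pcgf2 are short, at 8.61 to 17.6 kb, against 59.3 kb at Cbx7 and 30.3 to 195 kb at the PRC2 members. With any peak counted, Suz12 was found at all 9 members at 0 h, a rule for which no share of all genes is given. At 12 h it marked Cbx2, Cbx8 and Pcgf2, against 10.3% of all genes, and at 24 h Eed, Cbx2, Cbx8, Bmi1 and Pcgf2, against 12.7%. Ring1B marked the same 5 PRC1 genes and Ezh2 at 0 h, against 14.4% of all genes. At 12 h it marked Eed, Cbx2, Cbx7, Cbx8 and Pcgf2, against 14.6%, and at 24 h the 5 PRC1 genes, against 19.9%. Without 12 h replicate 2 or 3 Ring1B marked 2 members (Cbx2 and Pcgf2) or 3 (also Eed), and without 24 h replicate 2 or 3 Suz12 marked 3 (Cbx2, Cbx8 and Bmi1). Cbx8 had the widest Suz12 coverage of the members, with 81.0, 76.6 and 63.0% at 0 h, 25.8, 56.6 and 89.5% at 12 h and 61.1, 66.4 and 89.7% at 24 h. Its strongest Suz12 peak was at or above the 99.4 percentile of total signal in every list. Its Ring1B coverage was 56.9, 51.4 and 50.6% at 0 h, 0, 36.0 and 38.5% at 12 h and 72.0, 79.9 and 61.2% at 24 h, the 24 h group being above the others. No member passed for either antibody, 0 of 9 each (limma; unadjusted p under 0.05 for 1 member with Suz12 and 2 with Ring1B), and 0.0% of all genes passed for Suz12 and 0.085% for Ring1B. For Ring1B these 2 were Cbx8 (limma, adjusted p = 0.351) and Bmi1.

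H3K27ac was found mostly on the genes that lacked H3K27me3. At 0 h Eed and Jarid2 were marked, against 9.05% of all genes. At 12 h all 4 PRC2 members and 0 of the 5 PRC1 members were marked, against 17.4% of all genes, and at 24 h Ezh2, Eed, Jarid2, Bmi1 and Pcgf2, against 19.4%. Without 24 h replicate 1 or 3 only Eed and Jarid2 were marked at 24 h, and without 0 h replicate 2 or 3 no member was at 0 h. Jarid2 was covered to 6.68, 21.4 and 23.4% at 0 h, 33.0, 50.1 and 29.1% at 12 h and 51.7, 15.6 and 38.1% at 24 h, with its longest peak in each 24 h library 10.4 to 51.4 kb long. Ezh2 was covered to 0, 0 and 11.9% at 0 h, 18.0, 29.7 and 11.2% at 12 h and 64.3, 4.66 and 16.1% at 24 h. At Ezh2 the groups overlapped. At Jarid2 the 24 h group overlapped both others, while every 12 h library was above every 0 h library. Of 7 members tested 0 passed (limma; 1 at an unadjusted p under 0.05, Cbx7 with adjusted p = 0.222), and 1.46% of all genes passed. At 24 h Bmi1 and Pcgf2 were marked with both H3K27ac and H3K27me3. At Pcgf2 the 2 marks shared no base covered in most libraries, because its H3K27ac began 2.96 kb before the start, next to Psmb3. H3K9me3, the mark of constitutive heterochromatin, was at 0 over all 9 members in all 12 libraries, as it was over 90.9% of all genes, and marked 0.752, 3.71 and 4.81% of all genes at 0, 12 and 24 h.

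Of 32 other genes of the Polycomb system, 5 were marked with H3K27me3 at 24 h (Rbbp7, Epop, Pcgf1, Bcor and Bcorl1), a lower share than the 27.1% of all genes. H2AK119Ub marked 9 of the 32 at 24 h, near the 27.6% of all genes, and 7 of these 9 code for PRC1 subunits or partners. Most of the 32 do so too, with 2 catalytic, 5 other canonical and 12 variant PRC1 genes on the list. Epop, a PRC2 cofactor, and Pcgf1, of variant PRC1, were marked with H3K27me3 and with H2AK119Ub at all 3 times. Epop was wholly covered by H3K27me3 in all libraries at 12 and 24 h, with 55.5 ± 50.9% at 0 h (SD, n = 3). With H3K27me3, 12 of the 32 could be tested and 6 passed, all higher at 24 h than at 0 h, near the 56.8% of all genes tested that passed. The largest of the 6 was Bcor, a partner of Pcgf1 encoded on X, with a difference of 39.8 points (SE 8.89; limma, adjusted p = 0.0131), and Bcorl1, also on X, had 17.8 points (SE 5.37; limma, adjusted p = 0.0257). The rest were small, with 3.57 points at Phc2, 3.77 at Pcgf3, 3.89 at Pcgf6 and 2.64 at Yaf2, and these genes were not marked. At Bcorl1, Phc2, Pcgf6 and Yaf2 the difference between 12 and 0 h was 0, as it was at Bcor with H2AK119Ub. A gene with no peak before 24 h enters the test through its 24 h libraries and can pass only as higher. The cross is a model of skewed X inactivation, in which an X without the deletion is the one known to be silenced, so X-linked genes are not matched to the autosomal members. The labels do not say which mice inherited the deletion. With H2AK119Ub 4 of 20 passed, Cbx6, Yaf2, Bcor and Bcorl1, all higher at 24 h, a lower share than the 33.2% of all genes tested. No core PRC2 gene was among them, where of Suz12, Rbbp4 and Rbbp7 only the X-linked Rbbp7 had enough H3K27me3 peaks for the test (limma, adjusted p = 0.0546). Hoxa9, a known Polycomb target taken for scale, had H3K27me3 over 100% of its region in all libraries at 24 h, against a mean of 95.3 ± 8.17% at 0 h (SD, n = 3). Other targets gained H3K27me3 between 0 and 24 h, with 57.6 points at Hoxd10, 33.9 at Gata4 and 57.0 at Sox1. These passed (limma, adjusted p = 0.0104, 0.0346 and 0.0487), while Pax6 and Cdkn2a did not (limma, adjusted p = 0.123 and 0.314).

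The genes whose coverage followed that of a member most closely over the 22 libraries of H3K27me3 and H2AK119Ub were sought among 8356 genes more than 100 kb away or on other chromosomes. For Cbx8 these were Hlx, a homeobox gene, with Pearson's r = 0.934, and the lncRNA 4921507G05Rik with r = 0.911. For Cbx2 they were Arhgap23 with r = 0.957 and C230057M02Rik with r = 0.956, and for Cbx7 Dnah11 with r = 0.923 and Trerf1 with r = 0.919. Pcgf2 had Rps6kc1 with r = 0.895 and Gm31677 with r = 0.893. Bmi1 had the weakest partners, Uchl5 with r = 0.850 and Gm46228 with r = 0.843, and both of these shared its low 12 h value, with mean H2AK119Ub of 4.47, 0.475 and 6.79% of the region at 0, 12 and 24 h at Uchl5. These coefficients are descriptions, since libraries of 1 time share their list length and the partners were picked as the highest.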

How the data were processed

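The authors deposited 1 peak list per library, called separately, with 6 columns and no header, for 61 of 64 samples. The 3 IgG samples were not analysed here. The build is mm10 per the submitters' processing notes, which also name Trimmomatic 0.32, Bowtie2 2.3.4.1, Picard and deepTools 3.5.1. Per the file names, peaks were called with SEACR on Cast reads, as norm relaxed for the histone marks and as a stringent top share of 0.01 for Suz12 and Ring1B. No version of SEACR, rule for the allele split or read depth was given in the sources. The deposited total and highest signal of a peak served to rank or filter the peaks of 1 list only.

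Peaks were merged within a library, and the percent of each gene region covered was computed with Python 3.11.15, pandas 2.3.3 and numpy 2.4.6. Gene positions and promoter windows came from RefSeq tables of GRCm38.p6, which give no exons. Each antibody was fitted over all its libraries with limma 3.58.1 in R 4.3.3 (moderated F-test over 0, 12 and 24 h, trend and robust options). Benjamini-Hochberg adjustment ran over all genes with a peak in at least 3 libraries, with a threshold of 0.05. A gene that passed counts as higher or lower at 1 time than another where that contrast's unadjusted p was also under 0.05. P-values measure the spread between these libraries only. The code was tested on simulated data. A stretch covered in most libraries is one covered in more than 0.5 of a group's libraries.

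The members, the gene lists and the rules were chosen with earlier results of these data known. A gene of the lists is not reported here and was left out of their counts. The named genes are the members, the other Polycomb genes that passed, known targets for scale, and the 2 genes most like each marked member. Alternatives scaled coverage to the autosomes, equalized or tightened the lists, changed the region, the filter, the scale or the test, added a replicate block and left out each library.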

Additional observations from a re-analysis of the deposited data

Results flagged for a closer look

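Of 20 groups of member values with 4 or 5 libraries and a spread, 2 held a library far from the rest, by the gap to its nearest neighbour relative to the group's range. Chance flags about 1 in 20 groups of continuous values, a rate that does not hold here, since all other libraries of both groups were at 0 and a lone peak then always stands apart. Jarid2 had H2AK119Ub over 4.22% of its region in 24 h replicate 1, against 0 in the other 4 libraries of that time. Pcgf2 had H2AK119Ub over 30.2% in 0 h replicate 2, against 0 in the other 3.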

How the results depend on the processing

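Over 38 member results tried under the alternatives, 684 of 722 values kept their direction and their side of the threshold, 14 fell short of it, 5 came to pass it and 19 turned their sign. The cause was not tested. For H3K27me3, 3 members passed; 1 did (Pcgf2) with coverage divided by that of the autosomes, 1 (Pcgf2) within 2 kb of the gene start, 0 with equal numbers of peaks per list, where Pcgf2 had too few peaks for the test, and 2 to 4 with 1 library left out. For H2AK119Ub, 1 member passed; 3 did (Cbx7, Cbx8 and Bmi1) with autosomal scaling, 0 near the gene start, where Cbx2 has no listed start and could not be tested, and 1 with any library left out. Scaled in this way the mean coverage of Cbx8 by H2AK119Ub was 58.8, 20.0 and 22.4 times that of the autosomes at 0, 12 and 24 h. The Cbx8 region was wholly covered in every library at 12 and 24 h. Cbx7, which was not, had 13.5, 4.84 and 4.28 times, and the reason for these falls was not tested.

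Same-numbered replicates of different times did not deviate together (correlations of -0.214 to 0.0819). The numbers thus gave no sign of pairing, but with so few libraries these correlations cannot exclude that equal numbers share a mouse. With a replicate block 2 members passed for H3K27me3 (Bmi1 and Pcgf2, with Cbx8 at an adjusted p of 0.0501 by limma) and 1 for H2AK119Ub (Cbx2), and with the block and autosomal scaling 1 (Pcgf2) and 1 (Bmi1).

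Marked members at 0 h with H3K27me3, 2 in all, were 5 with any peak counted, 0 with at least 25% covered, 1 with equal lists, 1 in the gene body and 1 to 2 with a library left out, and at 12 h 1 in the gene body. At 24 h Cbx2 was not marked in the gene body, nor Pcgf2 with equal lists. With H2AK119Ub at 0 h they were 2 near the start, where Cbx2 could not be counted, 2 with at least 25% covered and 2 in the gene body. With any peak counted, Suz12 at 0, 12 and 24 h gave 9, 8 and 8 and Ring1B at 12 and 24 h gave 9 and 9. With at least 25% covered, Suz12 gave 3, 1 and 2 and Ring1B 3, 2 and 3 at 0, 12 and 24 h. In the gene body Suz12 at 24 h gave 3 and Ring1B at 12 h gave 3. With a library left out the range was 2 to 3 for Suz12 at 12 h, 3 to 5 for Suz12 at 24 h, and 2 to 4 for Ring1B at 12 h. The shares of all genes under these other rules are not given here, so the counts show only how the rule moved the members.

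With autosomal scaling, alone and with the block, signs turned for Cbx2 H2AK119Ub at 24 against 0 h (-25.4 and -20.0), Cbx2 H3K27me3 (-29.9 and -27.7), Cbx7 H3K27me3 (-36.3 and -37.2), Cbx7 H2AK119Ub at 12 against 0 h (-35.3 and -34.7), Cbx8 H2AK119Ub (-158 and -156) and Ezh1 H2AK119Ub (-1.94 and -3.09). Cbx7 H2AK119Ub also turned near the gene start (-0.600), with equal lists (-0.218) and with stricter lists (-0.218). Ezh2 Ring1B turned near the start (5.92), Eed Ring1B without 12 h replicate 1 (1.09, with a range of -5.51 to 1.09 over libraries left out), and Pcgf2 H3K27ac in the gene body (-0.372) and with stricter lists (-0.288).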
